A study of Mus musculus with 4 samples.

Results

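Transcription initiation was mapped at genes of iron uptake, storage and export in mouse embryonic liver and yolk sac. The 10 genes, of 21951 protein-coding genes in the GENCODE annotation, were taken by name for their known roles, and all 10 were found in the annotation. They are Trf, Tfrc, Tfr2, Hfe, Steap3, Slc11a2, Fth1, Ftl1, Slc40a1 and Hamp. PRO-seq, a run-on assay that maps RNA polymerases engaged in transcription, had been done on E14.5 liver and yolk sac, with 2 libraries per tissue. Each library came from tissue pooled from 6 embryos, which was ground in liquid nitrogen before the run-on was done on the isolated chromatin. All 4 libraries share a cross of C57BL/6J females with males of mixed C57BL/6J and CAST/EiJ background whose only alleles at the Dlk1/Gtl2 locus of chromosome 12 were CAST/EiJ, and the labels name no treatment or deletion. The label field for strain background reads C57BL/6h, not C57BL/6J.

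The values are lists of dREG peaks, intervals in which a classifier, given the run-on reads of both strands, calls initiation. A peak marks where initiation was called, at a promoter or at a distal site such as an enhancer, and its score is the authors' own value without a unit. It does not give the amount of RNA made. The liver lists hold 24863 and 24333 peaks, those of the yolk sac 50525 and 43055, and the number of reads behind them is unknown. A percentile below is the share of a library's own list with a score at or below that peak's score. Because the lists differ in length, percentiles describe a peak within its list and show no change between tissues. Widths are in base pairs (bp). A peak was counted at a promoter when it lay within 500 bp of an annotated start, which here means a start in GENCODE. It was counted around a gene when its midpoint lay in the gene or within 20 kb of it. Values of the tissues were called different when both libraries of one lay above both of the other. With 2 libraries against 2, an exact permutation test cannot give a p-value below 0.33.

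Iron travels in plasma bound to transferrin, the product of Trf. The complex binds the transferrin receptor on the cell surface (Tfrc) and is taken up into endosomes, where a reductase (Steap3) turns the iron to its ferrous form and a channel-like transporter (Slc11a2, also called DMT1) moves it into the cytosol. Iron that is not used is held in ferritin shells made of heavy (Fth1) and light (Ftl1) chains, or leaves the cell through ferroportin (Slc40a1). The liver hormone hepcidin (Hamp) binds ferroportin and blocks this exit, and Hfe and the second transferrin receptor, Tfr2, act in hepatocytes on the signal that sets hepcidin. The foetal liver at this stage is the main site of red cell formation, a process with a very high demand for iron, and the yolk sac endoderm takes up and passes on nutrients to the embryo.

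Several of these messages are also known to be read by iron regulatory proteins, which bind a hairpin with the loop CAGUGN, named the iron-responsive element. These elements lie in the RNA and not in the promoter. Those found are shown to place their genes in the known circuit and to tell apart transcripts that start at different sites. The untranslated regions (UTRs) of the annotated coding transcripts were searched for a C, 5 bases, CAGTGN and 5 bases that pair with the first 5, with G-T pairs allowed. Stems of this form were found in 160 of 21951 protein-coding genes, or 0.729%, and in 4 of the 10 iron genes. A match is a description of the letters and not a proof of binding. No other mismatch was allowed, so elements of another form are missed. A gene without a match may still carry an element, and one with matches may carry more. They are given as DNA in the direction of transcription from the GENCODE transcripts (GRCm38), with the loop letters CAGTG in capitals. The last loop letter, N, is in lower case.
Fth1 5′ UTR, chr19:9982738-9982754, plus strand: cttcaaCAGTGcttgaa
Ftl1 5′ UTR, chr7:45459785-45459801, minus strand: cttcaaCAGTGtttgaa
Slc40a1 5′ UTR, chr1:45925471-45925487, minus strand: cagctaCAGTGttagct
Tfrc 3′ UTR, chr16:32631225-32631241, plus strand: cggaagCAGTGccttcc
Tfrc 3′ UTR, chr16:32631604-32631620, plus strand: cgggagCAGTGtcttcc
Tfrc 3′ UTR, chr16:32631669-32631685, plus strand: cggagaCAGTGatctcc
Tfrc 3′ UTR, chr16:32631716-32631732, plus strand: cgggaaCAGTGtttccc
The ferritin chains and ferroportin carry the stem before the coding sequence, where binding is known to hold back translation. In Tfrc 4 stems of the searched form lie behind it, where binding is known to protect the message.

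In both tissues 9 of the 10 iron genes had a promoter peak in each of the 4 libraries, and Hamp had none in any. Of all protein-coding genes, 53.8% were called this way in every list, and between 56.1% and 63.8% had one in a given list. No iron gene had a promoter peak in 1 tissue only, where 1.01% of all genes had one in liver only and 5.25% in yolk sac only. At some of these genes the tissues differed in the extent of the promoter peaks and in the start sites they covered, as they did at many other genes. The promoter peak was wider in both liver libraries at 4 of the 9 genes, Trf, Tfrc, Tfr2 and Steap3, against 20.9% of the 11805 genes with a promoter peak in all 4 lists. It was wider in both yolk sac libraries at 1 of 9, Slc40a1, against 34.5%. At Hfe, Slc11a2, Fth1 and Ftl1 the widths of the tissues overlapped. The median width over the 11805 genes was 1702 and 1552 bp in the liver libraries and 1752 and 1602 bp in those of the yolk sac. Where a gene had more than 1 promoter peak in a library, the one with the highest score was used for these counts. At Tfr2, Steap3 and Slc11a2 that peak was not at the same start in all libraries. The counts are small, and nothing is read from them about the iron genes as a set. No gene's call passed to 1 tissue with windows of 250 or 1000 bp. With the first start alone Slc11a2 counted as yolk sac only, and Steap3 and Fth1 had no promoter peak. Trf and Tfrc counted as yolk sac only when the midpoint of the peak had to lie in the window. Either rule left 6 of the 10 genes with a promoter peak in all 4 libraries. The same number remained in the higher-scoring 50% of each list and with equal list lengths. In the higher-scoring 50% Trf had none in any library, and Fth1 and Ftl1 had one in some libraries only.

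**Figure D1:**
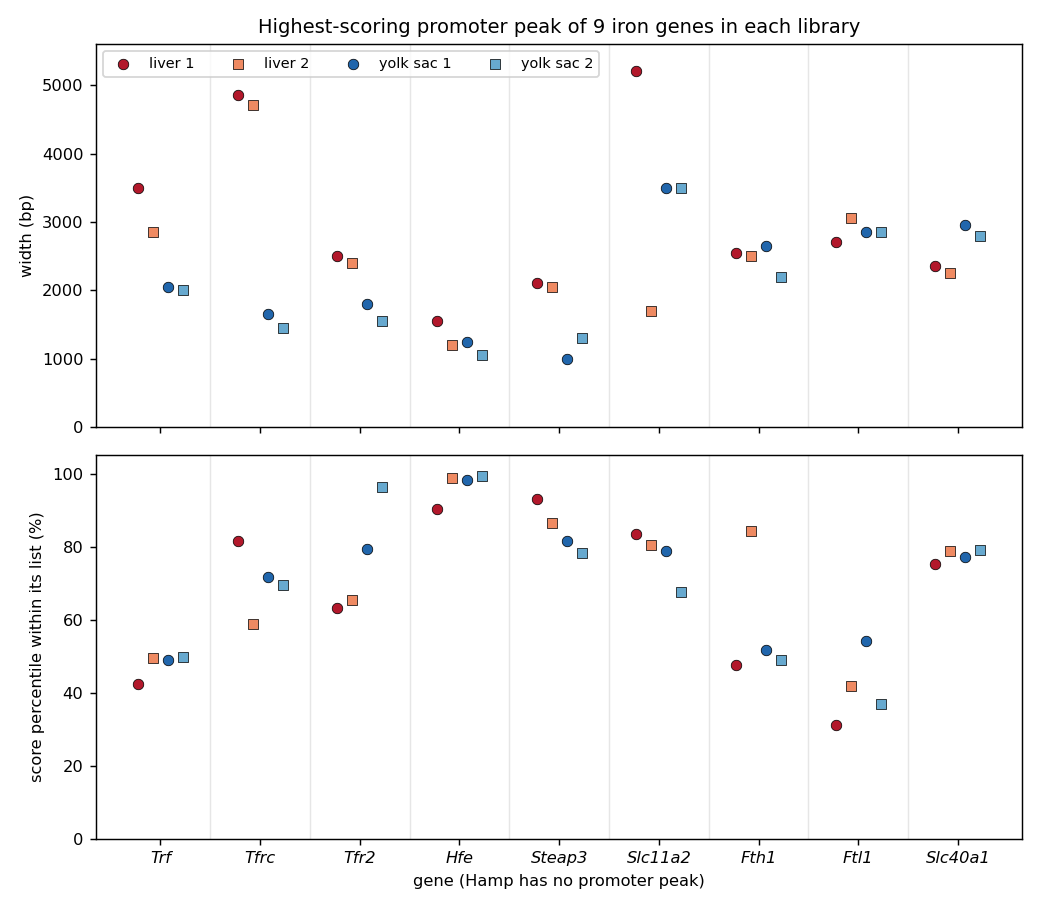
Width in bp (upper panel) and score percentile within its own list (lower panel) of the highest-scoring promoter peak of 9 iron genes, 1 point per library, with no error bars. The liver points of Tfrc, at 4852 and 4702 bp, lie far above its yolk sac points at 1652 and 1452 bp, whereas the 4 points of Ftl1 lie between 2702 and 3052 bp.

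The tissue make-up of the libraries was read from promoter peaks at listed marker genes. All 7 erythroid markers used had one in both liver libraries, and 3 of 7 had one in each yolk sac library. Those without a yolk sac peak were Gata1, Klf1, Alas2 and Slc4a1. Of 8 yolk sac endoderm markers 7 had a peak in each yolk sac library, against 5 and 2 in liver, and Amn and Cubn had none in liver. Hepatocyte markers were met in both tissues, at 6 and 5 of 8 in liver and 6 and 6 in yolk sac, and these lists share Hnf4a, Afp and Ttr. Macrophage markers numbered 3 and 3 of 6 in liver and 5 and 4 in yolk sac, and mesenchymal and mesothelial markers 2 and 3 of 5 against 5 and 5. Endothelial markers were at 3 and 4 of 4 in liver and 4 and 4 in yolk sac. In bulk tissue, fewer cells of a type and less initiation per cell cannot be told apart. The part of these markers' cell types in the differences at the iron genes below was not tested.

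Trf, which encodes the plasma carrier, lies on the minus strand of chr9:103204001-103230444 (GRCm38, as for all positions here). Its promoter peak was 3502 and 2852 bp wide in the liver libraries and 2052 and 2002 bp in the yolk sac libraries, a mean of 3177 ± 460 bp against 2027 ± 35.4 bp (SD, n = 2). The liver widths did not overlap those of the yolk sac, and the mean was 1.57-fold higher in liver. The extra width lay downstream: the start 2002 bp into the gene was inside both liver peaks and 659 bp from both yolk sac peaks. The score stood near the middle of each list, at percentiles of 42.5 and 49.6 in liver and 48.9 and 49.7 in yolk sac. A start of the predicted gene Gm20425 lies at the same peak, so part of the signal may belong to it. A region 11.1 kb before the first start, at chr9:103240851-103242202, was called in yolk sac only, meaning in both libraries of that tissue and in none of the other. Its percentiles were 43.0 and 37.2, and no annotated start lies there.

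Tfrc, which encodes the receptor that brings iron-loaded transferrin into cells, lies on the plus strand of chr16:32608920-32632794. Its promoter peak measured 4852 and 4702 bp in liver and 1652 and 1452 bp in yolk sac. Both liver peaks ran from about the same point before the start to 3932 and 3832 bp behind it, and the yolk sac peaks ended 882 and 832 bp behind it. The mean was 4777 ± 106 bp in liver and 1552 ± 141 bp in yolk sac (SD, n = 2), so the difference of 3.08-fold was far larger than the spread within a tissue. Of the 11805 genes with a promoter peak in all 4 lists, 73 had a liver-over-yolk-sac width ratio at least as high, Tfrc included. Among all peaks of its own list, the Tfrc peak stood at width percentiles of 99.7 and 99.8 in liver and 81.4 and 77.8 in yolk sac. Its score percentiles in the full lists were 81.5 and 58.9 in liver and 71.6 and 69.6 in yolk sac, which overlapped. Each list was then shortened to the same number of highest-scoring peaks. Both liver percentiles then lay above both of yolk sac, with a mean difference (yolk sac minus liver) of -26.4 percentage points. Shortening removes low-scoring peaks mostly from the longer yolk sac lists, which lowers the percentiles of the peaks left in them. Nothing about the tissues is read from this shift. All 3 starts at the head of the gene lay inside the peak in every library, and the 4 starts further down the gene lay over 2 kb from any peak. The stretch that was added in liver held no further annotated start.

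The sequence before the Tfrc start is shown because the same start was covered in both tissues, and it is given with the letters searched for in all promoters. RefSeq promoters of GRCm38.p6 were at hand for 7 of the 10 genes, with 14 starts among them, and the 250 bases before each start were searched on both strands. GATA factors are known to bind the letters AGATAA, and the variant with a leading T, TGATAA, was searched as well. The box bound by KLF1 was taken as CCNCACCC. The core of the antioxidant response element was taken as TGACNNNGC, and the response element for BMP signals as GGCGCC. An E-box was taken as CACGTG and a TATA box as TATAAA. For the liver factors, one arm of the HNF1 site was taken as GTTAAT, and the HNF4 site was taken as CAAAGTCCA, beside the full HNF1 site. Of 32817 promoters in the table, 16.6% held the GATA letters, 14.9% the CACCC box, 10.2% the antioxidant core, 9.59% GGCGCC, 6.02% the E-box, 12.4% the TATA box, 6.44% the arm of the HNF1 site, 0.00914% the full HNF1 site and 0.384% the HNF4 site. Capitals mark a match, and the strand shown is that of the gene.
Tfrc, chr16:32608646-32608895, plus strand: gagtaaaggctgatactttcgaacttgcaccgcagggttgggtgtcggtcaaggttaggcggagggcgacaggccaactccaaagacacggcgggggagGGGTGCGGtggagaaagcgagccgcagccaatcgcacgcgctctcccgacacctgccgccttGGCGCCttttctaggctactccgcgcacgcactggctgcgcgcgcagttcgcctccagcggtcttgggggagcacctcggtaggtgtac
The first match, on the opposite strand, is a CACCC box whose first base lies 151 bp before the start, and the second is GGCGCC at 89 bp. 

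A second comparison at the edge of the Tfrc window concerned the promoter of the neighbouring gene Tnk2. The highest-scoring peak in that region, chr16:32643601-32646052, was also wider in liver, at 2402 and 2402 bp against 1102 and 1252 bp in yolk sac. The first yolk sac library had a further peak of 602 bp there, at chr16:32645301-32645902, so its signal was split. The upstream region at chr16:32593351-32594052, 15.2 kb before the first Tfrc start, was called in yolk sac only, at percentiles of 49.0 and 31.0.

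Tfr2, the second transferrin receptor, lies on the plus strand of chr5:137569840-137587481 and has 10 annotated starts. Its starts were covered differently in the 2 tissues. At the first group of starts the peak was 2502 and 2402 bp wide in liver and 352 and 302 bp in yolk sac, with percentiles of 63.1 and 65.4 against 14.6 and 13.5. The mean width was 2452 ± 70.7 bp in liver and 327 ± 35.4 bp in yolk sac (SD, n = 2), or 7.50-fold higher in liver. The starts 880, 965 and 1611 bp into the gene were inside both liver peaks and 818, 903 and 1549 bp away from both yolk sac peaks. At the start 13445 bp into the gene the order was turned around. There the peak was 602 and 902 bp wide in liver and 1802 and 1552 bp in yolk sac, 2.23-fold higher in yolk sac, and its percentiles were 29.4 and 34.3 against 79.4 and 96.5. A further start, 4675 bp into the gene, was met by a peak in yolk sac only, at chr5:137574351-137574952, with percentiles of 70.7 and 7.81. The sequence before the first start, where the liver peak is broad and the yolk sac peak narrow, holds a CACCC box on the opposite strand, 22 bp before the start.
Tfr2, chr5:137569590-137569839, plus strand: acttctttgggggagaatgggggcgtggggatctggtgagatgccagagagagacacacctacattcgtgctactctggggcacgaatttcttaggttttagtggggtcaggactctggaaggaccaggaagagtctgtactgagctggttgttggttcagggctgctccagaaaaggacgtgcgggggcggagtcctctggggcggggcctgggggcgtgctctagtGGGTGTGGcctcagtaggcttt
Since the highest-scoring Tfr2 peak lay at the first starts in liver and at the internal start in yolk sac, the gene's count as wider in liver sets side by side peaks of different starts.

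**Figure D2:**
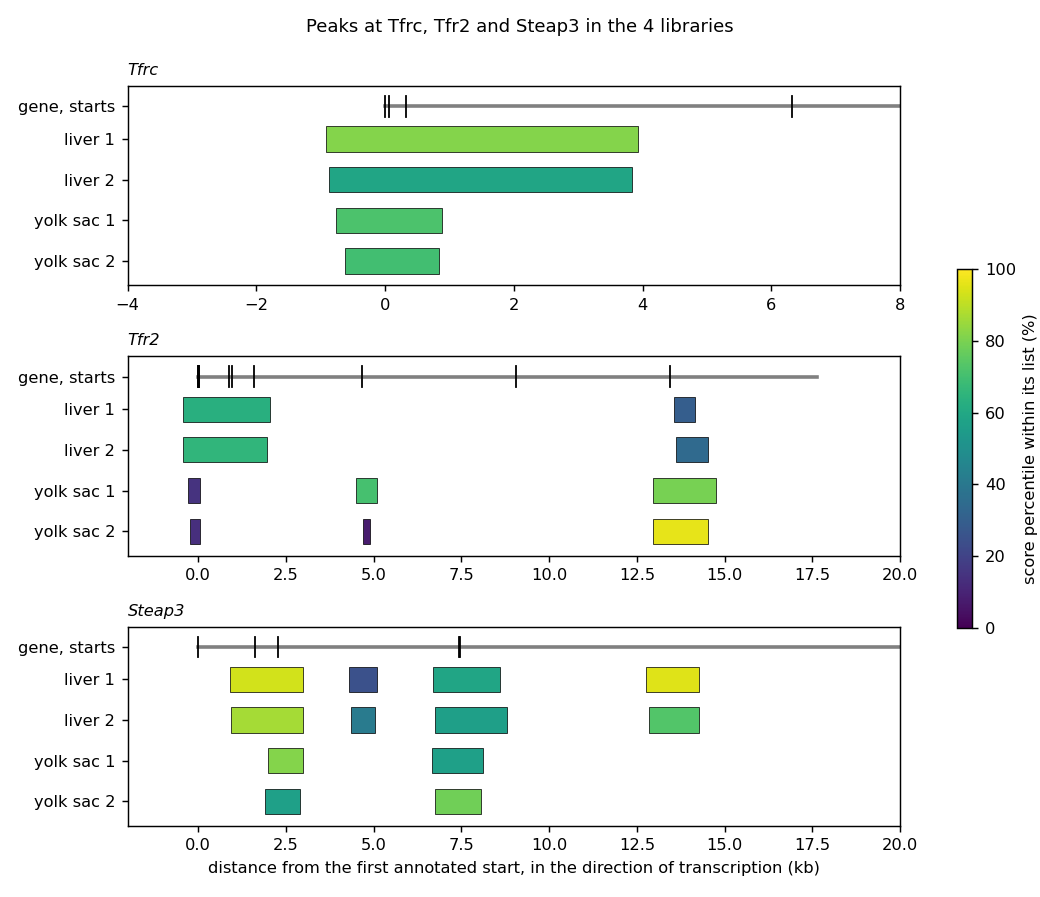
Peaks in the 4 libraries at Tfrc, Tfr2 and Steap3 against the distance from the first annotated start in kb, in the direction of transcription. The grey line is the gene, black ticks are annotated starts and colour is the score percentile within the list. At Tfr2 the liver peaks of 2502 and 2402 bp stand over yolk sac peaks of 352 and 302 bp at the first starts, and at the internal start the yolk sac peaks are the wider ones.

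Hfe, an MHC class I-like partner of the transferrin receptors, lies on the minus strand of chr13:23702034-23710854 among histone genes. It had 1 promoter peak in each library, of 1552 and 1202 bp in liver and 1252 and 1052 bp in yolk sac, and these widths overlapped. Its percentiles were the highest of the 9 genes in 3 of the 4 lists, at 90.2 and 98.9 in liver and 98.2 and 99.4 in yolk sac. In the first liver library Steap3 stood higher. The tissues also had the same numbers of peaks in and around Hfe, 5 and 3 in each. The neighbouring peaks that were called in all 4 libraries lay at starts of histone genes.

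Steap3, the endosomal ferric reductase of red cell precursors, lies on the minus strand of chr1:120190757-120272705. It was the only iron gene with more peaks in both liver libraries, 4 and 4, than in either yolk sac library, 2 and 2. A pair of its regions were called in liver only and both lay inside the gene. One, at chr1:120258451-120259952, was 1502 and 1402 bp wide at percentiles of 95.1 and 72.8. The other, at chr1:120267601-120268402, was 802 and 702 bp wide at percentiles of 24.8 and 41.1. The region of the first starts was 2102 and 2052 bp wide in liver and 1002 and 1002 bp in yolk sac, a ratio of 2.07. The start 1623 bp into the gene was inside both liver peaks and 380 and 280 bp from the yolk sac peaks, whereas the start at 2282 bp was inside all 4. At the starts 7421 and 7450 bp into the gene the peak was again wider in liver, at 1902 and 2052 bp against 1452 and 1302 bp. The very first annotated start had no peak within 500 bp in any library.

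Steap3 sequences are shown for the pair of starts where the tissues parted: the start covered by the broad liver peaks, and a RefSeq start inside the higher-scoring liver-only region. In the first, the CACCC box begins 78 bp and the GATA letters 45 bp before the start, both on the opposite strand. In the second none of the letters searched for was found.
Steap3 at the broad liver peak, chr1:120271081-120271330, minus strand: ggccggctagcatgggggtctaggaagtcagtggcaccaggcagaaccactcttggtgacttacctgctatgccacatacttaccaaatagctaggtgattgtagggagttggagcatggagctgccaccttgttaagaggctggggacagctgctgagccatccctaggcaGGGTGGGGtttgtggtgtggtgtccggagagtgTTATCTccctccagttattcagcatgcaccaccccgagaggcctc
Steap3 at the liver-only region, chr1:120258879-120259128, minus strand: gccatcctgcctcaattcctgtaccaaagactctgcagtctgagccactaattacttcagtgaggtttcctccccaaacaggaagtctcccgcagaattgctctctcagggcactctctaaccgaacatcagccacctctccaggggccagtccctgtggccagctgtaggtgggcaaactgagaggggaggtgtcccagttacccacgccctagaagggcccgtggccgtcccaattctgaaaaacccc
Among the 14 iron gene promoter windows that were searched, the GATA letters were found at Steap3, Tfr2 (before a start further into the gene) and Hamp. The CACCC box was found at these genes and also at Tfrc and Ftl1. The shares of all promoters given above, 16.6% for GATA and 14.9% for CACCC, are per window. Steap3, Tfr2 and Tfrc each had more than 1 window, so the genes with a match are not set against these shares. Nothing is read from their number. Hamp had no promoter peak, and at Ftl1 the widths of the tissues overlapped. GATA1 and KLF1 are the factors known to bind GATA and CACCC letters in red cell precursors, and the genes for both had promoter peaks in liver only. Their binding was not measured here, and their part in the peaks was not tested.

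Slc11a2, the transporter that moves ferrous iron out of endosomes and across the gut lining, lies on the minus strand of chr15:100387898-100425072. It is known for alternative first exons. In the 5′ region, chr15:100419251-100425152, the first liver library had 1 peak of 5202 bp and the second had separate peaks of 1702 and 2602 bp, so liver widths alone say little there. The yolk sac peaks were 4352 and 4152 bp. The first annotated start lay inside the peak of the first yolk sac library and 270 bp from that of the second, against 620 and 870 bp in liver. The remaining 5 starts at the head of the gene lay within 12 bp of a peak or inside one in all 4 libraries. The predicted gene Gm5475 has a start at the same region.

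The larger difference at Slc11a2 lay inside the gene. An internal region with the starts 21650 and 21829 bp into the gene, within chr15:100400701-100404302, held a peak of 3502 bp in each yolk sac library, at percentiles of 78.8 and 67.7. The first liver library had only small fragments there, the highest-scoring of 252 bp at percentile 20.6, and the second had none. One region within the gene, chr15:100391051-100392402, was called in liver only, at percentiles of 76.4 and 62.2. Yolk-sac-only regions numbered 4, and lay at chr15:100398601-100399502 and chr15:100405501-100406352 within the gene and at chr15:100429801-100430602 and chr15:100436101-100437202 upstream. The last of these, 11.6 kb before the first start, had percentiles of 84.1 and 84.9. No annotated start of another gene lies at any of these 5 regions.

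Fth1, the ferritin heavy chain with the ferroxidase site, lies on the plus strand of chr19:9980598-9985098. Its promoter peak was 2552 and 2502 bp wide in liver and 2652 and 2202 bp in yolk sac, with no separation of the tissues. The percentiles were 47.6 and 84.3 in liver and 51.8 and 49.0 in yolk sac, so the liver libraries stood further apart than the tissues did. The peaks covered the starts from 1325 to 2517 bp into the gene record in every library, and the very first start lay 1003 to 1253 bp from any peak. Of the 5 coding transcripts 4 carry the stem printed above, also the one from that first start. Upstream, the region at chr19:9977001-9979202 was called in all 4 libraries and was wider in yolk sac, at 2052 and 2202 bp against 1002 and 902 bp in liver, a ratio of 2.23. Regions at chr19:9964101-9964952 and chr19:9974751-9975952 were called in yolk sac only. So was one at chr19:9992751-9993702, which is at a start of Best1.

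Ftl1, the ferritin light chain, lies on the minus strand of chr7:45457944-45459884. Its promoter peak had nearly the same width in all libraries, 2702 and 3052 bp in liver and 2852 and 2852 bp in yolk sac. Its percentiles, the lowest of the 9 genes in both liver libraries and in the second yolk sac library, were 31.2 and 41.9 in liver and 54.2 and 36.8 in yolk sac. A start of the predicted gene Gm10252 lies at the same peak, and reads from ferritin pseudogenes, of which the genome holds many, could have been placed here or lost from here. A region 15.6 kb before the first start, chr7:45474801-45476152, was called in all 4 libraries, at 1302 and 1352 bp in liver against 702 and 702 bp in yolk sac. Its percentiles were 98.4 and 92.9 in liver and 57.1 and 40.6 in yolk sac, and no annotated start lies there. The liver-only region at chr7:45451301-45451802 is at a start of the glycogen synthase gene Gys1.

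Slc40a1, which encodes the only known cellular iron exporter, lies on the minus strand of chr1:45908068-45926523. It was the only iron gene with a promoter peak wider in both yolk sac libraries, at 2952 and 2802 bp against 2352 and 2252 bp in liver, a ratio of 1.25. The mean was 2877 ± 106 bp in yolk sac and 2302 ± 70.7 bp in liver (SD, n = 2), and 3168 of the 11805 genes had a yolk-sac-over-liver ratio at least as high. The peaks did not simply grow. The liver peaks reached further upstream, to 45927052 in both libraries against 45926702 in both yolk sac libraries, and the yolk sac peaks reached further into the gene, to 45923751 and 45923901 against 45924701 and 45924801. The percentiles in the full lists overlapped, at 75.3 and 78.7 in liver and 77.1 and 79.2 in yolk sac. In lists of equal length they were higher in both liver libraries, by a mean difference (yolk sac minus liver) of -18.9 percentage points. As at Tfrc, shortening itself lowers the yolk sac percentiles, so nothing about the tissues is read from this.

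Ferroportin's start sites bear on how it is read by iron regulatory proteins. Of its 4 coding transcripts only the one that starts at 45925582 carries the stem, and the 3 that start at 45926519 do not. All 4 libraries had both starts inside their peak, so the lists do not separate the transcripts with the stem from those without it. A region within the gene, chr1:45920551-45921302, was also called in all 4. Downstream of the gene, chr1:45894151-45894952 and chr1:45904601-45905702 were called in yolk sac only, and the latter, at a start of the predicted gene Gm18303, had percentiles of 86.4 and 36.1.

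**Figure D3:**
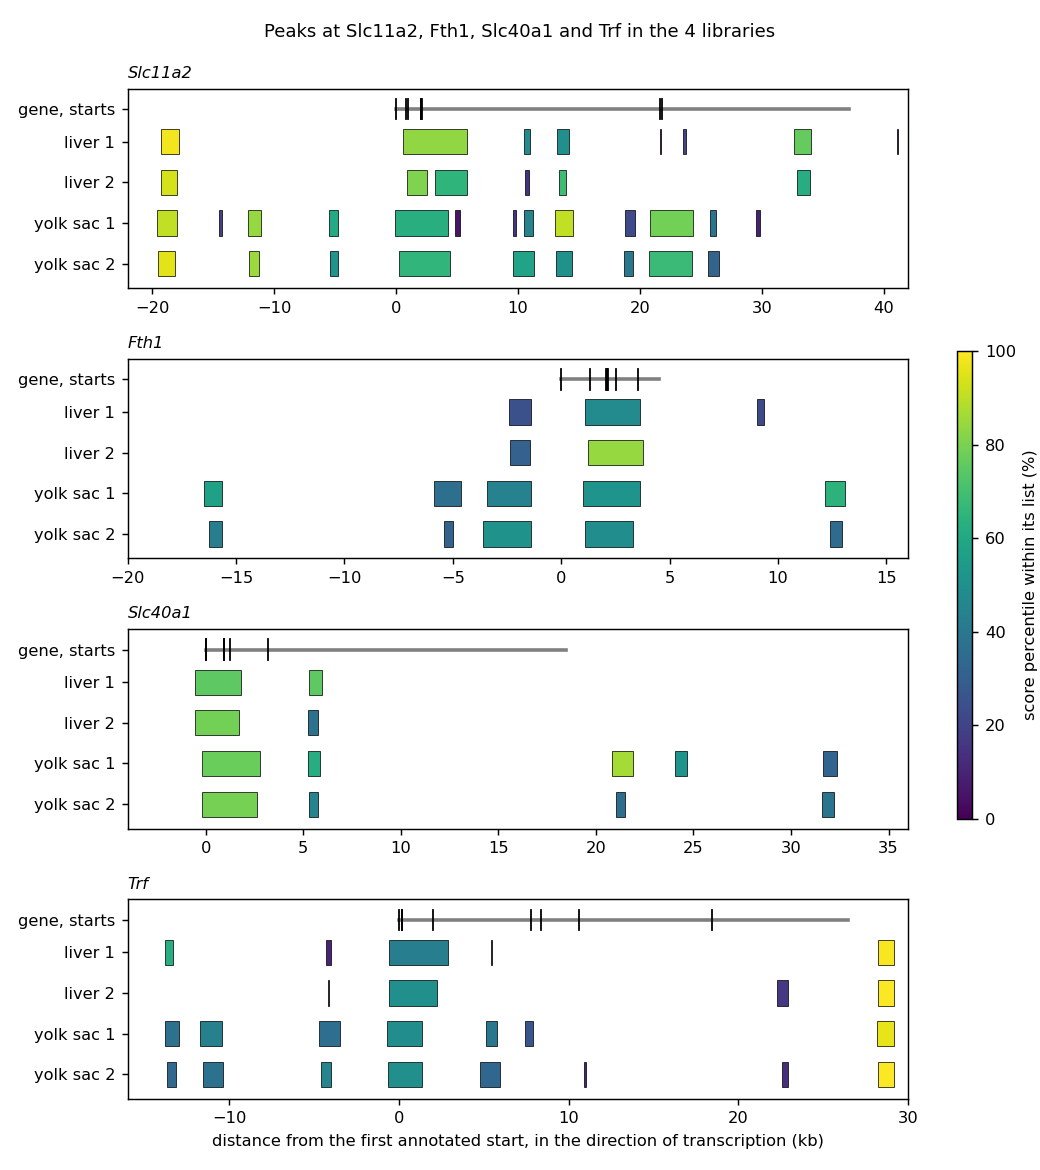
Peaks in the 4 libraries at Slc11a2, Fth1, Slc40a1 and Trf against the distance from the first annotated start in kb, in the direction of transcription, drawn with the gene as a grey line, annotated starts as black ticks and score percentile as colour. At Slc11a2 the yolk sac peaks of 3502 bp at the internal starts have only fragments beside them in 1 liver library, and at Slc40a1 the yolk sac peaks reach further into the gene.

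Hamp, which encodes hepcidin, lies on the minus strand of chr7:30942368-30944032 and has 1 annotated start. No library had a peak within 500 bp of it, and the nearest peak lay 10219 and 11619 bp away in liver and 9519 and 9519 bp away in yolk sac. The numbers of peaks around the gene were 2 and 1 in liver and 2 and 2 in yolk sac, none of them in the gene. The yolk-sac-only region among them, chr7:30953551-30954052, had percentiles of 35.4 and 15.1. The region chr7:30955401-30959102, called in all 4, is the promoter of Usf2. No peak in a list does not show that the gene was silent, since the depth is unknown. The Hamp promoter is shown because Hamp is the only one of the 10 genes without a promoter peak and because this window holds the most matches of the 14 searched, which are 2 CACCC boxes with first bases 196 and 65 bp before the start, GATA letters at 128 bp and GGCGCC at 109 bp.
Hamp, chr7:30944030-30944279, minus strand: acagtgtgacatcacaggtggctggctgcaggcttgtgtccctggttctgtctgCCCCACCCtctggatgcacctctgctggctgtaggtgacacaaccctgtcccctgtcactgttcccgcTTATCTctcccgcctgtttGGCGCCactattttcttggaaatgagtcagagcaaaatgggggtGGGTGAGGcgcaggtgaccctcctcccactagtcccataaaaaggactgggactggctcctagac

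Within their lists, the promoter peaks of the 9 genes ranged from percentile 31.2 to 93.1 and from 41.9 to 98.9 in the liver libraries, and from 48.9 to 98.2 and from 36.8 to 99.4 in the yolk sac libraries. The percentile was higher in both liver libraries at Steap3 and Slc11a2, 2 of 9, against 22.1% of the 11805 genes. It was higher in both yolk sac libraries at Tfr2, 1 of 9, against 34.4%. At each of these 3 genes the highest-scoring peak was not at the same start in all libraries. The iron genes' shares in either direction were small counts near or below those of all genes, and nothing is read from them. In lists of equal length Tfrc and Slc40a1 joined Steap3 and Slc11a2 with higher liver percentiles, and the tissues overlapped at Tfr2. Shortening lowers the yolk sac percentiles by its construction, so no tissue difference is read from these calls.

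Counting all peaks in the 10 genes and 20 kb either side gave 41 and 34 for the liver libraries, and 56 and 46 for those of yolk sac. The means were 37.5 ± 4.95 and 51 ± 7.07 peaks (SD, n = 2), and the tissues did not overlap. The log2 ratio of yolk sac over liver, with 0.5 added to each mean, was 0.44, and its median over the 17256 protein-coding genes with a peak in this range was 0.42. Without the first yolk sac library the ratio was 0.29. The ratio for the iron genes pools their peaks, whereas the median is taken over the ratios of single genes. These measures are unlike, so nothing is read from how close they are. When each list was shortened to its 24333 highest-scoring peaks, the counts became 39 and 34 in liver and 26 and 25 in yolk sac, and the ratio turned to -0.51, where the median of all genes was 0. The direction of this difference therefore rests on the length of the yolk sac lists.

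**Figure D4:**
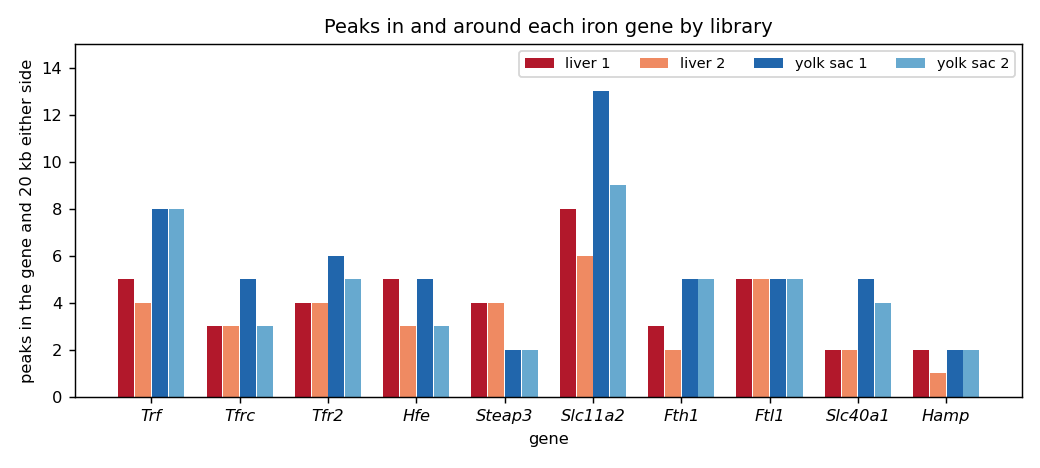
Number of peaks in each iron gene and 20 kb either side (bars start at 0), 1 bar per library. Steap3 has 4 and 4 peaks in liver against 2 and 2 in yolk sac, whereas Slc11a2 has 8 and 6 against 13 and 9.

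Gene by gene, the peaks of 5 of 10 were more numerous in both libraries of the yolk sac, against 36.2% of all protein-coding genes, and 1 had more in both liver libraries, against 5.87%. For Trf the liver libraries had 5 and 4 peaks and those of yolk sac 8 and 8. Tfr2 had 4 and 4 against 6 and 5, and Slc11a2 had 8 and 6 against 13 and 9. Fth1 had 3 and 2 against 5 and 5, and Slc40a1 had 2 and 2 against 5 and 4. The tissues overlapped at Tfrc with 3 and 3 against 5 and 3, at Hfe, at Hamp and at Ftl1, which had 5 in each library. For each of the 6 genes whose tissues did not overlap, the exact two-sided permutation p was 0.33, the smallest this design allows, and the Benjamini-Hochberg adjusted p over 21951 genes was 0.792. No protein-coding gene, 0 of 21951, reached an unadjusted p under 0.05 in this exact permutation test. Nothing says that the pools of the 2 libraries of a tissue were independent litters, so the spread between them may be technical. In the shortened lists 5 of 10, namely Steap3, Trf, Tfrc, Tfr2 and Ftl1, had more peaks in both liver libraries, against 20.3% of all genes, and 0 of 10 had more in both of yolk sac, against 11.2%.

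Peaks that overlapped between libraries were joined into 66 regions in and around the 10 genes. Of these, 27 were called in all 4 libraries, or 40.9%, against 25.7% of the 61095 regions of the genome. Regions called in yolk sac only numbered 13, or 19.7%, against 33.0%, and those in liver only 4, or 6.06%, against 6.62%. The remaining 22 were mixed, and 18 of all regions were called in 1 library only. The regions at starts of the iron genes themselves numbered 15, and 38 lay away from any GENCODE start. Among the 38 is the liver-only Steap3 region that holds a RefSeq start. Of these 38, 8 were called in all 4 libraries, 10 in yolk sac only and 3 in liver only. The share over all regions of the genome away from starts is not given here, so nothing is read from these counts. The 66 regions were taken in and near genes and include those at starts. Their shares and those of all 61095 regions are therefore of unlike sets.

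The wider circuit was read from 45 other iron genes in 6 functional groups. Those with a promoter peak in each of the 4 lists numbered 28, or 62.2%, against 53.8% of protein-coding genes. Of the 45 genes, 35 and 35 had a promoter peak in the liver libraries, and 36 and 35 in those of yolk sac. All 6 genes of iron sensing and delivery had one in all 4, among them the iron regulatory proteins Aco1 and Ireb2, the ubiquitin ligase subunit Fbxl5 and the ferritin receptor Ncoa4. So did 9 of 11 genes of transport and reduction. Of the 3 ferroxidases, enzymes that oxidise iron for loading on transferrin, none did. Of 8 genes that scavenge haem, haemoglobin or siderophores 2 did, and of 15 genes that control hepcidin 10 did.

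The genes with a promoter peak in liver only were 4 of 45, or 8.89%, against 1.01% of protein-coding genes. They were the haemoglobin scavenger Hp, the hepcidin regulators Hfe2 (hemojuvelin) and Tmprss6 (matriptase-2), and the erythroid hormone Erfe, known to suppress hepcidin. Erfe stood at percentiles of 86.2 and 86.2 in the liver libraries with peaks of 1352 and 1252 bp. Tmprss6 stood at 62.8 and 86.1, with 1002 and 902 bp. Hfe2 stood at 67.6 and 64.3 with 3052 bp in both. Hp was weaker, at 40.4 and 14.2. The erythroid marker list, at 7 and 7 of 7 in liver and 3 and 3 in yolk sac, ran in the same direction as Erfe, and its part was not tested.

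Promoter peaks in yolk sac only were found at 3 of 45, or 6.67%, against 5.25%. They were at the ferroxidase Heph, the haemoglobin-haptoglobin receptor Cd163 and the hepcidin inducer Bmp6. Heph stood at percentiles of 82.2 and 76.1, Bmp6 at 44.3 and 89.9 and Cd163 at 24.2 and 12.8. The Heph peak also lies at a start of Hsf3, and the Cd163 peak at a start of Gm25311, so neither can be given to the iron gene alone. Macrophage markers, the class to which Cd163 belongs, were at 5 and 4 of 6 in yolk sac and 3 and 3 in liver, and their part was not tested.

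These counts moved with the lists used. With equal list lengths the liver-only genes numbered 7, with Slc48a1, Hpx and Bmp2 added, against 3.01% of all protein-coding genes, and Heph was the 1 gene in yolk sac only, against 2.61%. In the higher-scoring 50% of each list 4 were in liver only, with Slc48a1 in place of Hp, against 1.32%, and 8 in yolk sac only, against 8.84%. Those 8 were Heph, Slc11a1, Cybrd1, Steap4, Cp, Hmox1, Slc22a17 and Ltf. The Ltf peak of the first yolk sac library, chr9:111034801-111036002, lay at a start inside the gene. With the first start alone, neither yolk sac library had a promoter peak at Ltf. Erfe and Tmprss6 in liver and Heph in yolk sac kept their pattern in every window, start, score and length setting run.

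No library had a promoter peak at 5 of the 45 genes: the mitochondrial iron importer Slc25a37 (mitoferrin-1), Hephl1, the siderophore binder Lcn2, the hepcidin paralogue Hamp2 and mitochondrial ferritin Ftmt. Slc25a37 is known for its high expression in red cell precursors, but no library had any peak in it or within 20 kb of it. The same held for Ftmt. Whether peaks could be called at these loci was not tested. The remaining 5 genes, Cybrd1, Cp, Hpx, Slc22a17 and Ltf, were each called in 3 of the 4 libraries. At Ltf the liver peak and the yolk sac peaks lay at different starts. Among the regulators of Hamp, hemojuvelin, the BMP receptors, Smad1 and Smad5 are known to raise it, whereas matriptase-2, which cleaves hemojuvelin, Erfe and the inhibitory Smad6 and Smad7 are known to hold it down. Of the 15 genes listed for the control of hepcidin, 13 had a promoter peak in each liver library, all but Bmp6 and Hamp2.

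**Figure D5:**
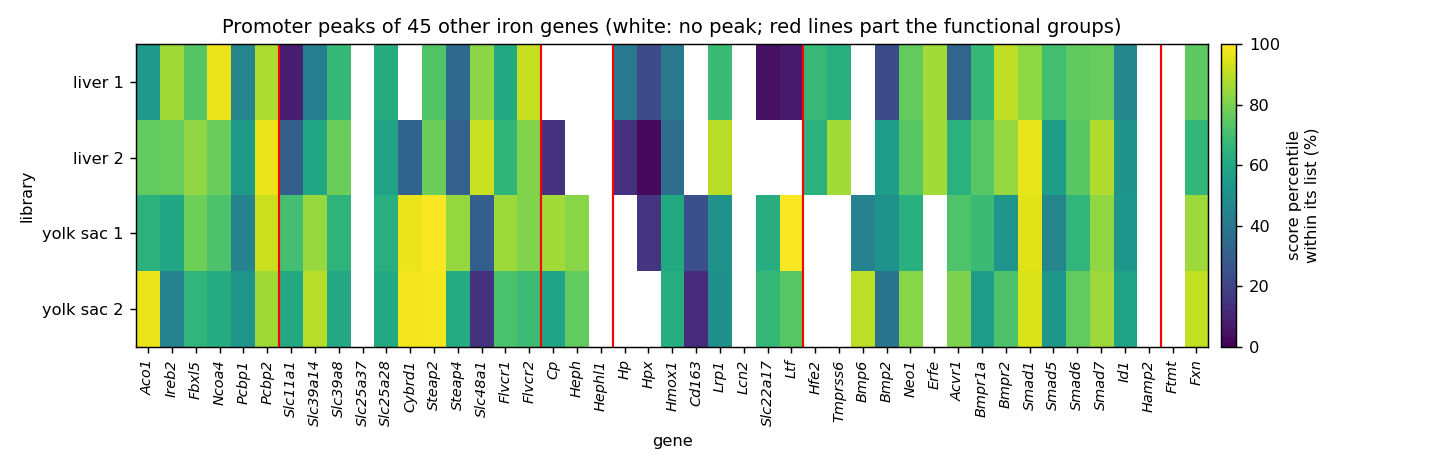
Score percentile within its own list of the highest-scoring promoter peak of 45 other iron genes (columns, red lines part the 6 functional groups) in the 4 libraries (rows), white where no promoter peak was called. Erfe, Tmprss6 and Hfe2 are white in both yolk sac rows, and Heph and Bmp6 are white in both liver rows.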

How the data were processed

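PRO-seq had been done on 2 liver and 2 yolk sac libraries. The authors deposited 1 list of dREG peaks per library, with a score per peak that has no unit and was not scaled between libraries here. Bowtie2, bedtools and the build mm10 are named in the submitters' processing notes, without versions. Filters, the dREG version and the joining of nearby peaks, which would change widths, are not given in the sources used here. Depth is unknown, so no counting interval could be given.

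Peaks were set against GENCODE release 21 (GRCm38) starts with Python 3.11.15, numpy 2.4.6 and pandas 2.3.3, with the windows of 500 bp and 20 kb and a pseudocount of 0.5, and figures were drawn with matplotlib 3.10.9. Peak numbers were compared by exact two-sided permutation over the 6 assignments of libraries, for every protein-coding gene, with Benjamini-Hochberg adjustment. The counting was tested on simulated lists. The genes and lists were chosen with earlier results of these data known. The rule named all 10 iron genes, those of the other 45 with promoter peaks in 1 tissue only or in none, and regions called in both libraries of 1 tissue only, up to 4 per gene and direction. Other genes and regions named, called in all 4 libraries or in a mixed pattern, were chosen after their values were seen. Ahsp was not matched by that symbol, and 1 further erythroid marker is not reported here. Region sequences away from starts were not analysed here. Alternatives were other windows, flanks, start sets, score filters and list lengths, and leaving out each library. Replicate numbers are shared between tissues but mark no shared animal or day.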

Additional observations from a re-analysis of the deposited data

How the results depend on the processing

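The number of iron genes with a promoter peak, as a difference of yolk sac minus liver means, was 0. It became 1.0 with only the first start of each gene, 0.5 in the higher-scoring 50% of each list, -1.5 with equal list lengths and 1.5 with the peak midpoint required in the window. Leaving out a library left it at 0. For the 45 other genes it was 0.5, and it became 5.0, -5.0 and 4.5 with the higher-scoring 50%, equal lengths and the midpoint rule, with a range of 0 to 1 when a library was left out.

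The log2 ratio of peak numbers around the iron genes, 0.44, became 0.72 with 50 kb flanks, 0.11 in gene bodies and -0.51 with equal lengths, and ranged from 0.29 to 0.58 when a library was left out. With equal lengths it also reversed at Trf (-1.0), Tfr2 (-0.58) and Fth1 (-0.26), and in the higher-scoring 50% at Trf (-0.41). The replicate block gave 0.44 for peak numbers, 0 for promoter peaks of iron genes and 0.5 for those of other genes, and changed no call. The lower width in yolk sac at Tfrc, Tfr2 and Steap3 and the higher one at Slc40a1 kept their direction with the widest peak and with equal lengths, the latter chosen after the data were seen. Trf had no promoter peak in 1 of the equal-length lists. Hp and Cd163 had no promoter peak in the higher-scoring 50%, Hfe2 had none under the midpoint rule, and Bmp6 kept only its second yolk sac peak with a score filter. With equal lengths the percentile difference (yolk sac minus liver) went from 23.7 to 11.6 at Tfr2, whose tissues then overlapped. It went from 0.42 to -26.4 at Tfrc and from 1.11 to -18.9 at Slc40a1, where liver became higher, and from -9.90 to -28.1 at Steap3 and from -8.75 to -32.4 at Slc11a2. Shortening by its construction lowers the percentiles of the peaks left in the yolk sac lists, so these percentile shifts show no difference between tissues. The cause of the other changes was not tested. Where depth was too low for a peak to be called, a gene counts as having none.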
